A study of Mus musculus with 6 samples.

Results

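Transcription factors that divide the neural tube along its dorsoventral axis were followed in whole RFC1-/- mouse embryos and their RFC1+/+ littermates. The 10 genes, in order from dorsal to ventral progenitor domains, were Msx3, Olig3, Pax3, Pax7, Dbx1, Dbx2, Pax6, Nkx6-1, Olig2 and Nkx2-2, and every probe set annotated to 1 of these symbols alone was taken, which gave 17 of the 45101 probe sets on the array. The 3 RFC1-/- embryos were homozygous for a targeted allele of the reduced folate carrier gene on the inbred SWV background. Their labels call them affected. For RFC1-/- embryos on low maternal folate, the study gives an open neural tube (craniorachischisis) and defective fusion of the allantois with the chorion. The 3 RFC1+/+ embryos carried no targeted allele, and their labels call them normal. All 6 embryos were at embryonic day 9.5, came from RFC1+/- dams that received 25 mg/kg folic acid daily by subcutaneous injection, and formed 3 littermate pairs, with 1 embryo on each Affymetrix mouse array. The allele was carried in the germline and not limited to 1 tissue, RNA came from the whole embryo, and somite numbers were not used here. The study describes RFC1-/- embryos at mid-gestation as behind their wild-type littermates in development. The part of developmental stage in the differences below was not tested.

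In the neural tube, sonic hedgehog from the notochord and floor plate acts from the ventral side, and BMP and Wnt proteins from the roof plate act from the dorsal side. Neural progenitors read these gradients by switching on combinations of homeodomain and bHLH factors, many of which repress their neighbours, so that each dorsoventral domain comes to make its own classes of neurons. Several of these factors act elsewhere too: Pax3 and Pax7 in the dermomyotome and neural crest, Pax6 in the eye and forebrain, and Nkx6-1 and Nkx2-2 in the pancreas.

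Of the 10 genes, 7 were lower in RFC1-/- embryos on their brightest probe set (the probe set of a gene with the highest mean over the 6 arrays) and none was higher. The 7 were Msx3, Olig3, Pax3, Pax7, Dbx1, Pax6 and Olig2, and they lay between 1.78-fold and 4.01-fold below the RFC1+/+ level. Nkx6-1, Nkx2-2 and Dbx2 did not pass the test. By domain, 4 of 4 dorsal genes, 2 of 3 intermediate genes and 1 of 3 ventral genes fell. Differences are RFC1-/- minus RFC1+/+ on the log2 scale, tested with limma in a fit blocked by litter, and called at a Benjamini-Hochberg adjusted p under 0.05 over all 45101 probe sets. In the same fit, 1.33% of the 18194 genes measured on their brightest probe set were called lower and 2.96% higher. All 3 RFC1-/- embryos lay below all 3 RFC1+/+ embryos for the same 7 of 10 genes, against 13.4% of all genes, and those 7 were also the ones lower in all 3 litters, against 20.6% of all genes. Among the 17 probe sets, 9 fell and none rose, against 0.882% of all probe sets called lower and 1.87% called higher. The median difference of the 10 genes was -1.19, and that of all genes was -0.01. The 10 genes were chosen with earlier results of these data known, so the shares over all genes are a description, not a test.

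Most of these calls, though not the size of the differences, were lost without litter 1, the pair in which both embryos were male. Without it, Msx3 was the only gene of the 10 past the threshold (adjusted p = 0.0260 from limma), when 0.104% of all probe sets were called lower. The differences of the other 6 genes without litter 1 lay between -1.92 for Dbx1 and -0.86 for Pax7, with adjusted p from 0.0526 to 0.101 in limma. With all litters they lay between -2.002 and -0.83. Pax3, Pax6 and Pax7 fell further without litter 1, and Dbx1, Olig3 and Olig2 fell less. In litter 2 the RFC1-/- embryo was male and its littermate female, and in litter 3 the RFC1-/- embryo was female and its littermate male, as read from the Y-linked genes Eif2s3y and Kdm5d and from Xist. With embryo sex as a further covariate, 10 of the 17 probe sets were called lower, against 1.89% of all probe sets. The differences of the 17 were the same as without this covariate, and their standard errors were smaller. This fit and the fit without litter 1 each leave 1 residual degree of freedom.

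The arrays were alike in level, with medians from 5.43 to 5.49, and each array correlated with the others at 0.984 to 0.996. Slc19a1, which encodes the reduced folate carrier, measured 9.97, 10.10 and 9.84 in the RFC1-/- embryos of litters 1, 2 and 3, against 9.11, 9.10 and 8.89 in their RFC1+/+ littermates. It was thus called higher in RFC1-/- embryos (1.91-fold, limma adjusted p = 0.00809), as was a second Slc19a1 probe set (2.28-fold, limma adjusted p = 0.00701), while the third and dimmest differed by 0.02 (adjusted p = 0.963 from limma). None of the sources used here says which part of the gene was targeted in this allele, so the 3 probe sets do not check the genotypes. Visceral endoderm and primitive red cell genes, which belong to other cell types of the conceptus, had large differences. Of 11 measured visceral endoderm markers 10 rose, with a median difference of 3.85, and all 7 measured primitive erythroid markers fell, with a median of -3.70. In whole embryos, fewer cells of a type and less RNA per cell cannot be told apart.

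**Figure D1:**
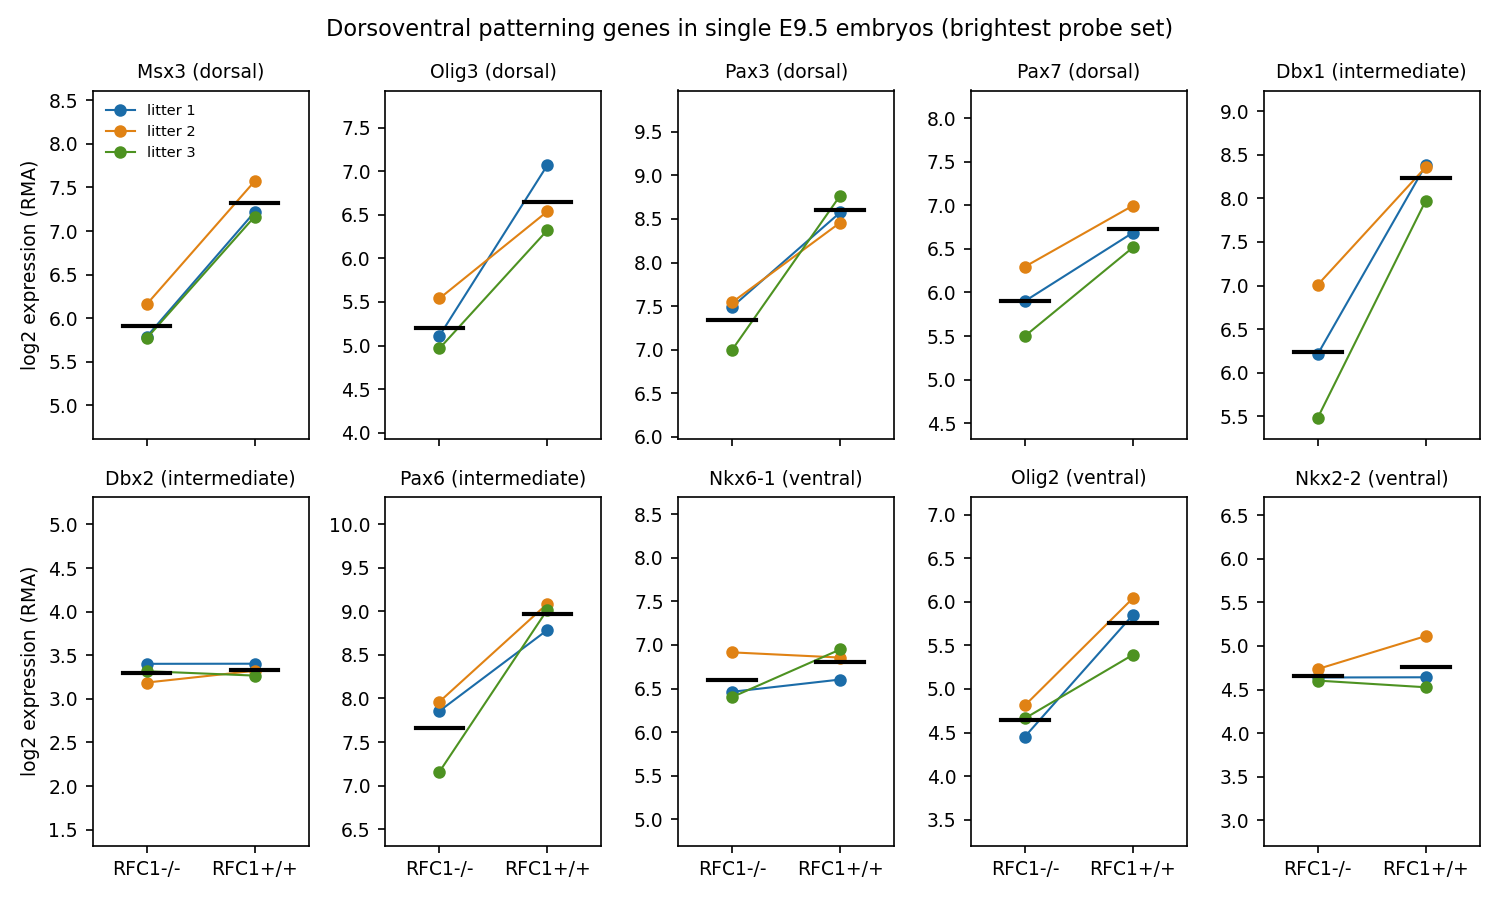
Log2 expression (y axis, 4 log2 units in every panel) of the brightest probe set of each gene in RFC1-/- embryos (left) and RFC1+/+ littermates (right). Points are single embryos, coloured lines join littermates, and black bars are group means; the groups are separate for 7 genes and overlap for Dbx2, Nkx6-1 and Nkx2-2.

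Dbx1, a homeodomain factor of the progenitors that give rise to commissural interneurons at the middle of the neural tube, had the lowest difference of the 10 genes. Its 1 probe set measured 6.21, 7.01 and 5.48 in the RFC1-/- embryos of litters 1, 2 and 3, against 8.38, 8.36 and 7.97 in their RFC1+/+ littermates. Every RFC1-/- embryo was thus below every RFC1+/+ embryo, and the RFC1-/- embryos were the more scattered (6.24 ± 0.76 against 8.24 ± 0.23, SD, n = 3 each). Dbx1 was 4.01-fold lower (log2 difference -2.002 with a standard error of 0.20, adjusted p = 0.00775 in limma and 0.0559 without litter 1). Dbx2, a related factor with a broader domain around that of Dbx1, stayed between 3.19 and 3.40 in the RFC1-/- embryos and between 3.27 and 3.40 in the RFC1+/+ embryos. Its values spanned only 0.22 log2 units over the 6 arrays, and whether this dim probe set lies above background was not settled. The Dbx2 difference was -0.03 with a 95% interval from -0.26 to 0.20 (adjusted p = 0.951 from limma).

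Pax6, a paired-box homeodomain factor of the intermediate and ventral neural tube, eye and forebrain, measured 7.86, 7.96 and 7.16 in RFC1-/- embryos, against 8.79, 9.09 and 9.02 in RFC1+/+ embryos. The groups were separate, and litter 3 had the lowest RFC1-/- value. Pax6 fell 2.47-fold on this probe set (log2 difference -1.30 with a standard error of 0.18, limma adjusted p = 0.0164, and 0.0526 without litter 1). Of its 4 other probe sets, all with a mean below the median of the array, 1 fell by 1.02 on the log2 scale (adjusted p = 0.0288 from limma, 0.144 without litter 1). The other 3 differed by -0.12, -0.19 and -0.14 and did not pass, with adjusted p of 0.488 or more in limma.

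The 4 dorsal genes all fell. Msx3, a homeobox gene of the dorsal neural tube, measured 5.79, 6.16 and 5.77 in RFC1-/- embryos, against 7.22, 7.57 and 7.17 in RFC1+/+ embryos. Its littermate differences of -1.43, -1.41 and -1.40 were the most alike of any member, with an SD of 0.02. Msx3 fell 2.66-fold (standard error 0.09, adjusted p = 0.00355 from limma) and kept its call under every alternative tried. Olig3, a bHLH factor of the dorsal progenitors next to the roof plate, measured 5.11, 5.54 and 4.97 in RFC1-/- embryos, against 7.07, 6.54 and 6.32 in RFC1+/+ embryos. The groups did not overlap, but the litters differed in size, with differences of -1.96, -0.999 and -1.36. Olig3 fell 2.71-fold (log2 difference -1.44 with a standard error of 0.18, limma adjusted p = 0.0127, and 0.0526 without litter 1).

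Pax3, a paired-box factor of the dorsal neural tube, neural crest and dermomyotome whose loss in mice leaves the neural tube open, measured 7.49, 7.54 and 7.001 in RFC1-/- embryos, against 8.57, 8.46 and 8.77 in RFC1+/+ embryos. The groups were well apart, and the lowest RFC1-/- value was again that of litter 3. It fell 2.39-fold on this probe set (log2 difference -1.25 with a standard error of 0.17, limma adjusted p = 0.0155, and 0.0843 without litter 1). A second probe set fell 1.92-fold (adjusted p = 0.0185 from limma, 0.142 without litter 1), and the other, at -0.63, did not pass (limma adjusted p = 0.119), with litter differences of -0.82, -0.11 and -0.96. Pax7, the close relative of Pax3 in the dorsal neural tube, measured 5.90, 6.30 and 5.50 in RFC1-/- embryos, against 6.69, 6.996 and 6.52 in RFC1+/+ embryos. The highest RFC1-/- value lay just below the lowest RFC1+/+ value. Pax7 was 1.78-fold lower, the smallest change of the 7 genes (log2 difference -0.83 with a standard error of 0.11, limma adjusted p = 0.0140, and 0.101 without litter 1). Without the litter as a block its adjusted p was 0.0705. The dimmer Pax7 probe set differed by -0.13, with overlapping groups and adjusted p = 0.643 from limma.

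Among the ventral genes only Olig2 passed the test. Olig2, the bHLH factor of motor neuron progenitors, measured 4.45, 4.81 and 4.66 in RFC1-/- embryos, against 5.85, 6.04 and 5.39 in RFC1+/+ embryos. The groups were separate, and the difference was smallest in litter 3 (-0.73, against -1.40 and -1.23 in litters 1 and 2). Olig2 fell 2.17-fold (log2 difference -1.12 with a standard error of 0.14, limma adjusted p = 0.0139, and 0.0958 without litter 1). Nkx6-1, a homeodomain factor of a wide ventral domain that includes the motor neuron progenitors, measured 6.46, 6.92 and 6.40 in RFC1-/- embryos, against 6.60, 6.86 and 6.95 in RFC1+/+ embryos. These groups overlapped, and litter 2 ran the other way (0.06, against -0.14 and -0.55 in litters 1 and 3). The Nkx6-1 difference was -0.21, with a 95% interval from -0.52 to 0.11 (adjusted p = 0.565 from limma). Nkx2-2, which marks the progenitors beside the floor plate, measured 4.64, 4.74 and 4.60 in RFC1-/- embryos, against 4.64, 5.11 and 4.53 in RFC1+/+ embryos. Its difference was -0.10, with a 95% interval from -0.39 to 0.18 (adjusted p = 0.806 from limma), and its mean lay below the median of the array, as did that of Olig2.

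**Figure D2:**
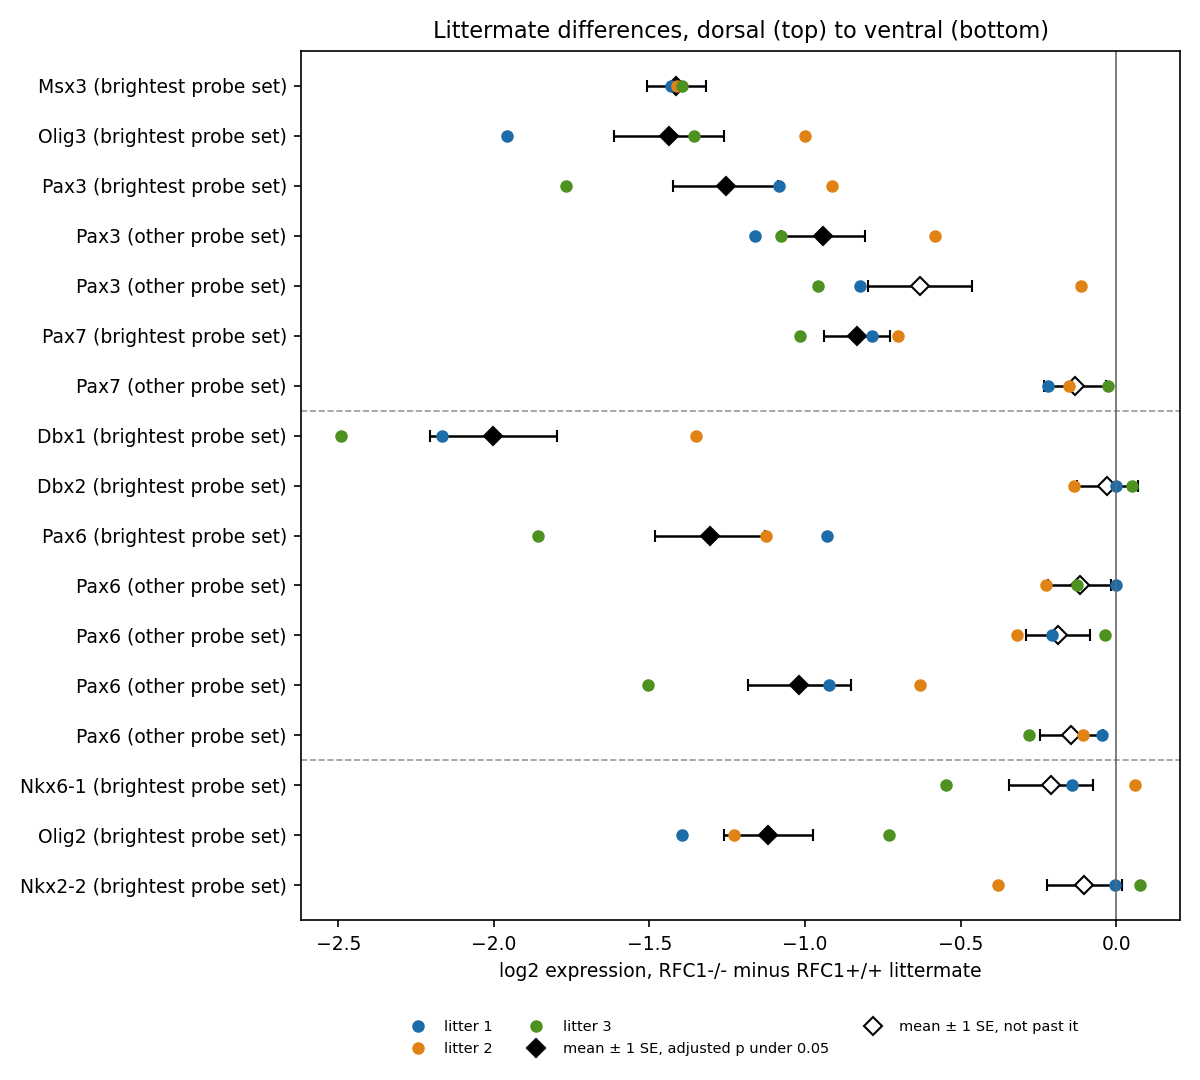
Log2 difference between the RFC1-/- embryo and its RFC1+/+ littermate (x axis) for all 17 probe sets, dorsal genes at the top and ventral genes at the bottom, with dashed lines between domains (y axis). Each coloured point is 1 of the 3 litters and each diamond the mean with 1 standard error from limma, filled for the 9 probe sets past an adjusted p of 0.05, from -2.002 for Dbx1 to -0.83 for Pax7.

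In order of their mean differences the genes ran Dbx1, Olig3, Msx3, Pax6, Pax3, Olig2, Pax7, Nkx6-1, Nkx2-2 and Dbx2. Neighbours in this order had overlapping 95% intervals, apart from Pax7 (-1.09 to -0.58) and Nkx6-1 (-0.52 to 0.11), and differences between genes were not tested. The lowest gene was Dbx1 in litters 1 and 3 (-2.17 and -2.49) and Msx3 in litter 2 (-1.41). Dorsal genes had median differences of -1.26, -0.96 and -1.38 in litters 1, 2 and 3, and ventral genes -0.14, -0.38 and -0.55, so that the dorsal median was the lower in each litter. The median of the 3 ventral genes is Nkx6-1 or Nkx2-2 in each litter, and does not describe Olig2. By root mean square distance over the 3 litter differences, the genes nearest to Dbx1 were the POU factor Pou3f3 (0.20), the secreted protein Scube2 (0.25), the neuronal RNA-binding protein Elavl4 (0.25), the leucine-rich repeat protein Lrrn1 (0.29) and the zinc finger factor Insm1 (0.31). Of the 18194 genes ranked in this way, Olig3, Msx3, Pax3 and Pax6 stood at ranks 23, 28, 34 and 38 and Olig2 and Pax7 at 84 and 123, while Nkx6-1, Nkx2-2 and Dbx2 stood at 1828, 7442 and 8975. The distance uses the litter differences themselves, so a rank largely restates the size of a gene's fall.

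Promoter windows are shown for Dbx1, the gene with the lowest difference, for Olig2, the ventral gene that fell, and for Nkx6-1, a ventral gene that did not pass. Each window holds 250 bases before and 50 bases after an annotated start in the RefSeq annotation of GRCm38.p6, and capitals mark CCAAT (read ATTGG on the other strand) and TATAAA. The Dbx1 window lies at chr7:49636786-49637085 on the minus strand, the Olig2 window at chr16:91225300-91225599 on the plus strand and the Nkx6-1 window at chr5:101664662-101664961 on the minus strand.
Dbx1: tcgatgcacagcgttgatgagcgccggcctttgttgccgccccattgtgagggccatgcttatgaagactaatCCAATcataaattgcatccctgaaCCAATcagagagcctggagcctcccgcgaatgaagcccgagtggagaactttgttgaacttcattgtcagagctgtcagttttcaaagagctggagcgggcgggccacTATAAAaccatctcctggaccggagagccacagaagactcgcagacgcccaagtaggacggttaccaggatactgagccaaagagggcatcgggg
Olig2: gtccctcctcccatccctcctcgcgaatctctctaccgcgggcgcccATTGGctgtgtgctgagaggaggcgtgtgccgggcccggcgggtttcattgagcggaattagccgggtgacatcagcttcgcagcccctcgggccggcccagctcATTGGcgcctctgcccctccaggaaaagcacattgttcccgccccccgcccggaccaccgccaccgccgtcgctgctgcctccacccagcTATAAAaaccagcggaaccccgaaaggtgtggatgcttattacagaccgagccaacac
Nkx6-1: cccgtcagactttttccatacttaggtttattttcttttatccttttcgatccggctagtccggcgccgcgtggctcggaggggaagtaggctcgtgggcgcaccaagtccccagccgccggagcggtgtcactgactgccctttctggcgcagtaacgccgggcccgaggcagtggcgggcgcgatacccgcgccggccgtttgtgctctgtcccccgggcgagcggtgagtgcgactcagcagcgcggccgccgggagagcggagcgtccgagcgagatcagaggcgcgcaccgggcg

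Windows were found for 9 of the 10 genes, with a pair of start sites for Pax6, and both strands were searched. CCAAT stood in the windows of 5 of the 6 genes that fell and have a window (Msx3, Olig3, Dbx1, Pax6 and Olig2, but not Pax7) and of 0 of the 3 that did not pass, against 37.4% of all 32851 windows. TATAAA stood in 4 of the 6 (Msx3, Olig3, Dbx1 and Olig2) and in 0 of the 3, against 13.6% of windows. These counts are by gene, with Pax6 counted if either of its windows matched, while the shares are over windows. In the Dbx1 window CCAAT began 177 and 153 bases before the start and TATAAA 45 bases before it. TATAAA began at -28, -180 and -8 from the start in the Msx3, Olig3 and Olig2 windows. GGGCGG stood in 4 of the 6 and in 1 of the 3, against 35.7% of windows, and neither TAATTA nor GACCACCCA, a Gli motif, stood in any window of the 9 genes (5.29% and 0.253% of all windows). None of the matches in the printed windows overlapped another. A match is a run of letters and was not tied to any binding in these embryos.

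Of 13 other measured progenitor factors of the same dorsoventral system, from roof plate to floor plate, none fell and 1, Foxa2, rose, against 1.33% of all genes called lower and 2.96% higher. Their median difference was -0.13, and without litter 3, or with embryo sex as a covariate, 1 was called lower and 1 higher. Nothing particular to this list is read from so few calls. Foxa2, a forkhead factor of the floor plate, notochord and endoderm, was higher in RFC1-/- embryos by 0.92 on the log2 scale (standard error of 0.14; limma adjusted p = 0.0207, 0.143 without litter 1, 0.0699 without litter 2 and 0.0869 after the variation filter of the methods, which leaves out probe sets that varied little over the arrays). The visceral endoderm markers above rose beside it, and their part in the Foxa2 value was not tested. Atoh1, the bHLH factor of the most dorsal progenitors, differed by -0.72 (adjusted p = 0.0821 from limma). Irx3 and Irx5, homeodomain factors of the dorsal and intermediate tube, differed by -0.36 and -0.46, and the dorsal and roof plate genes Msx1 and Msx2 by -0.04 and 0.06, with none past the threshold. Nkx2-9, a neighbour of Nkx2-2 in the most ventral progenitors, differed by 0.16 (adjusted p = 0.559 from limma).

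Among 11 measured signals and hedgehog response genes 2 rose and none fell, against 2.96% of all genes called higher and 1.33% lower. The number that rose was 0 without litter 1 or without litter 2, and 4 without litter 3. Of all probe sets, 0.182%, 1.28% and 2.47% were called higher without litters 1, 2 and 3. The number that rose was 1 with arrays centred on their medians or after the variation filter. With an intensity trend or with sex as a covariate, 1 gene was called lower. Shh, the ventral signal, measured 11.32, 11.03 and 11.18 in RFC1-/- embryos, against 10.54 in each RFC1+/+ embryo. It rose by 0.64 (standard error of 0.10, limma adjusted p = 0.0288, 0.231 without litter 1 and 0.0583 without litter 2). The study's quantitative RT-PCR value for Shh also lay above the RFC1+/+ level, but the change was not statistically significant. Bmp4, a BMP ligand of the surface ectoderm, roof plate and extraembryonic mesoderm, rose by 1.12 (adjusted p = 0.0325 from limma, 0.193 without litter 1, 0.0860 without litter 2 and 0.051 with arrays centred on their medians). Ptch1, the hedgehog receptor that hedgehog itself induces, differed by 0.62 and the hedgehog effector Gli1 by 0.32 (adjusted p = 0.0851 and 0.418 from limma). Gli3, which acts mainly as a repressor of hedgehog targets, differed by -0.51 on its brightest probe set (adjusted p = 0.0671 from limma) and by -0.52 on another (adjusted p = 0.0395 from limma). The dorsal signals Wnt1 and Wnt3a differed by -0.38 and -0.16 without passing.

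**Figure D3:**
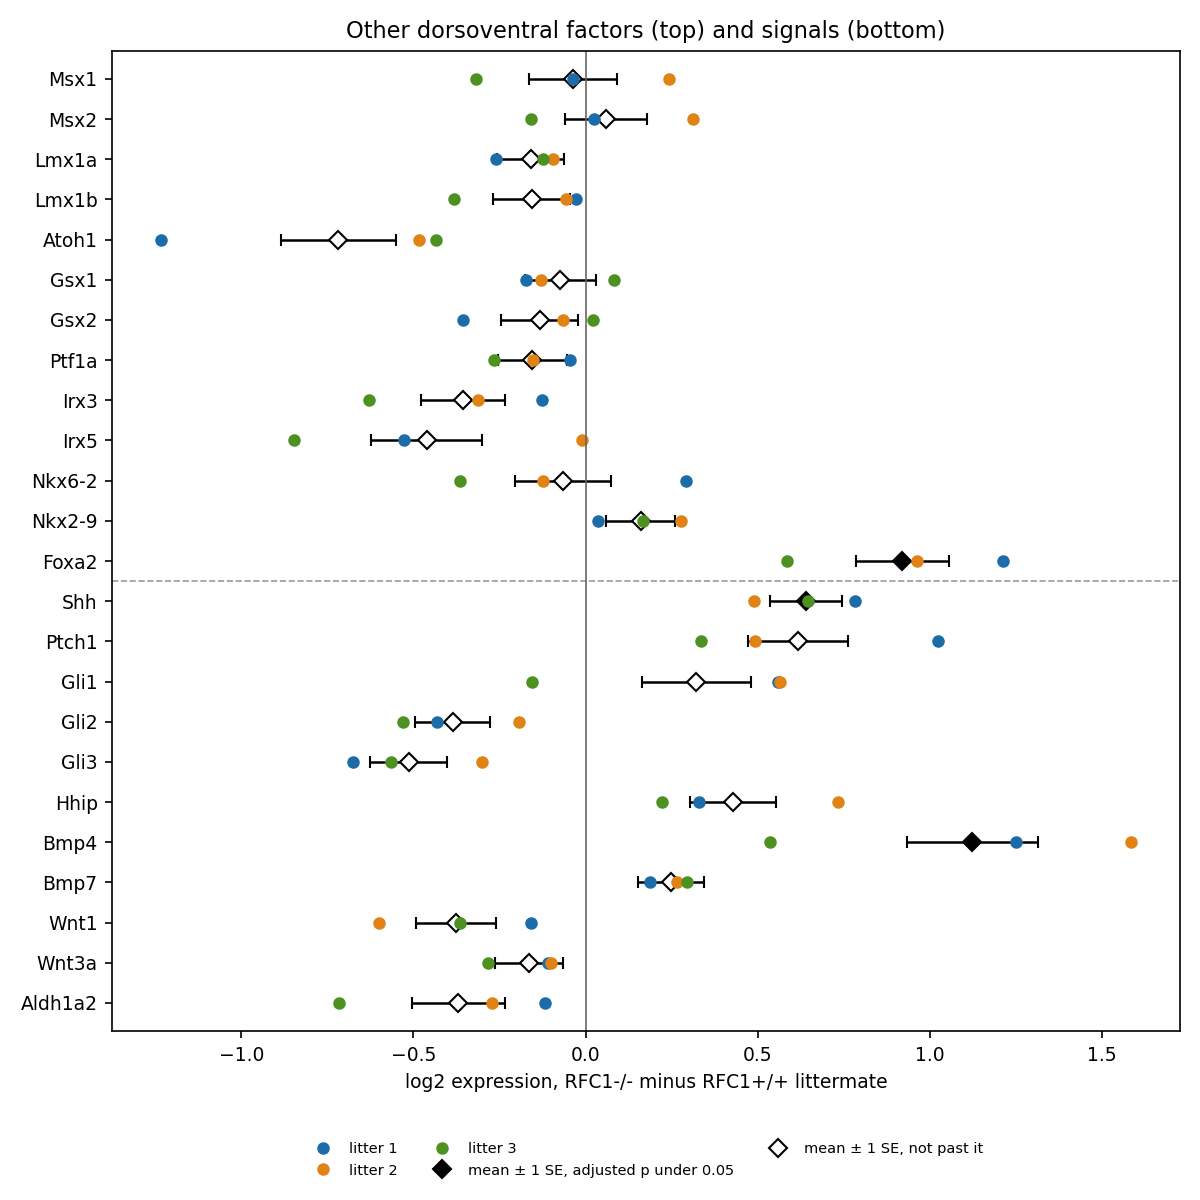
Log2 difference between the RFC1-/- embryo and its RFC1+/+ littermate (x axis) for 13 other dorsoventral progenitor factors (above the dashed line) and 11 signals and hedgehog response genes (below it), each on its brightest probe set (y axis). Coloured points are litters and diamonds means with 1 standard error from limma; the filled ones are Foxa2, Shh and Bmp4, all above 0.

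Of 17 measured factors that neurons switch on after leaving these domains, 2 fell and 1 rose, against 1.33% of all genes called lower and 2.96% higher. The counts became 2 higher without litter 3, and 1 lower and 0 higher with dim probe sets left out. The median difference of the 17 was -0.05, and 11 of the 17 had a mean below the median of the array. Pou4f1, a POU factor of sensory and dorsal neurons, fell by 1.07 and Lhx2, a LIM factor of dorsal neurons, eye and forebrain, fell by 1.05 (adjusted p = 0.0224 and 0.0147 from limma). Mnx1, a homeodomain factor of motor neurons that the notochord and gut also express, rose by 0.76 (adjusted p = 0.0184 from limma). None of these 3 calls held without litter 1 (adjusted p = 0.104, 0.110 and 0.160 from limma), and those of Pou4f1 and Mnx1 did not hold without litter 2 (adjusted p = 0.0578 and 0.0635). Mnx1 also lost its call in limma without the replicate block (adjusted p = 0.0741), in the random-variance test of the methods (0.0582) and after the variation filter (0.165).

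Of 9 pan-neural progenitor markers 4 fell, none rose and 5 did not pass the test, against 1.33% of all genes called lower. All 9 were lower in every litter, against 20.6% of all genes, and their median difference was -0.64. The number that fell was 0 without litter 1, 2 without the replicate block, 2 after the variation filter, which left 6 of the 9 in the fit, and 6 with sex as a covariate. Hes5, a Notch target, and Fabp7, a fatty acid binding protein of radial progenitors, each fell by 1.44, and Sox1 fell by 0.91 (adjusted p in limma 0.0835 without the replicate block and 0.0909 after the variation filter). Sox2, the broadest of these markers, was at -0.50 and did not pass (limma adjusted p = 0.193). The summed level of the 9 markers (log2) ran from 11.68 to 12.24 in RFC1-/- embryos, against 12.65 to 12.82 in RFC1+/+ embryos. Of 8 neuron markers 4 fell, none rose and 4 did not pass (7 fell without litter 3), with a median difference of -1.43, among them Neurod1 (-2.07), Elavl4 (-1.81) and Tubb3 (-1.57). The part of these lists in the values of the patterning genes was not tested.

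Set against the pan-neural median of the same litter, the 10 genes fell on both sides. Msx3, Olig3, Pax3, Pax7, Dbx1 and Pax6 lay below that median in all 3 litters, Nkx6-1, Nkx2-2 and Dbx2 above it in all 3, and Olig2 below it in litters 1 and 2. Dbx2 and Nkx2-2 were dim, with means of 3.32 and 4.71 over the 6 arrays. How far such probe sets could fall was not settled, so their place above the median says little. Dbx1 was lower than the median by a further 1.43, 0.93 and 1.53 log2 units in litters 1, 2 and 3. Nkx6-1 was above it by 0.60, 0.48 and 0.41 log2 units. Pax7 was nearly level with it, at -0.04, -0.28 and -0.06. Hes5 and Fabp7, which belong to the pan-neural list itself, also lay below its median in all 3 litters. The distances of the 10 genes are a description over 3 litters and carry no test.

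Markers of the other tissues in which some members act were mixed. Their counts stand against 1.33% of all genes called lower and 2.96% higher. Of 8 somite and dermomyotome markers, where Pax3 and Pax7 are also active, 3 fell and none rose, with a median of -0.61: Dmrt2 fell by 1.31, Meox2 by 0.96 and Pax1 by 0.62. The number called lower was 1 without litter 1, 1 after the variation filter, and 5 with 1 probe set a gene or with sex as a covariate, and 1 was called higher in these last fits and without litter 3. The Pax1 difference was -0.34 with its probe sets averaged (adjusted p = 0.143 from limma). Pax9, a paired-box gene of the sclerotome and pharyngeal pouches, was higher in all 3 litters, with a mean difference of 0.52 (adjusted p = 0.0628 from limma). Of 7 measured neural crest markers 1 fell (0 without litter 1, 2 with sex as a covariate), Tfap2b (-1.10), while Sox10 differed by -0.06 (adjusted p = 0.919 from limma). Of 6 measured eye and forebrain markers, where Pax6 and Lhx2 are active, 2 fell (1 without litter 1), Emx2 (-1.49) and Lhx2 (-1.05), while the optic genes Rax and Six3 differed by -0.08 and -0.16. The summed level of the somite list (log2) ran from 10.41 to 10.75 in RFC1-/- embryos, against 10.92 to 11.08 in RFC1+/+ embryos. That of the neural crest list lay between 12.25 and 12.86 in RFC1-/- embryos, against 12.86 to 12.94 in RFC1+/+ embryos, and that of the eye and forebrain list between 9.35 and 10.03 in RFC1-/- embryos, against 9.93 to 10.49 in RFC1+/+ embryos. The part of these tissues in the Pax3, Pax7 and Pax6 values was not tested.

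**Figure D4:**
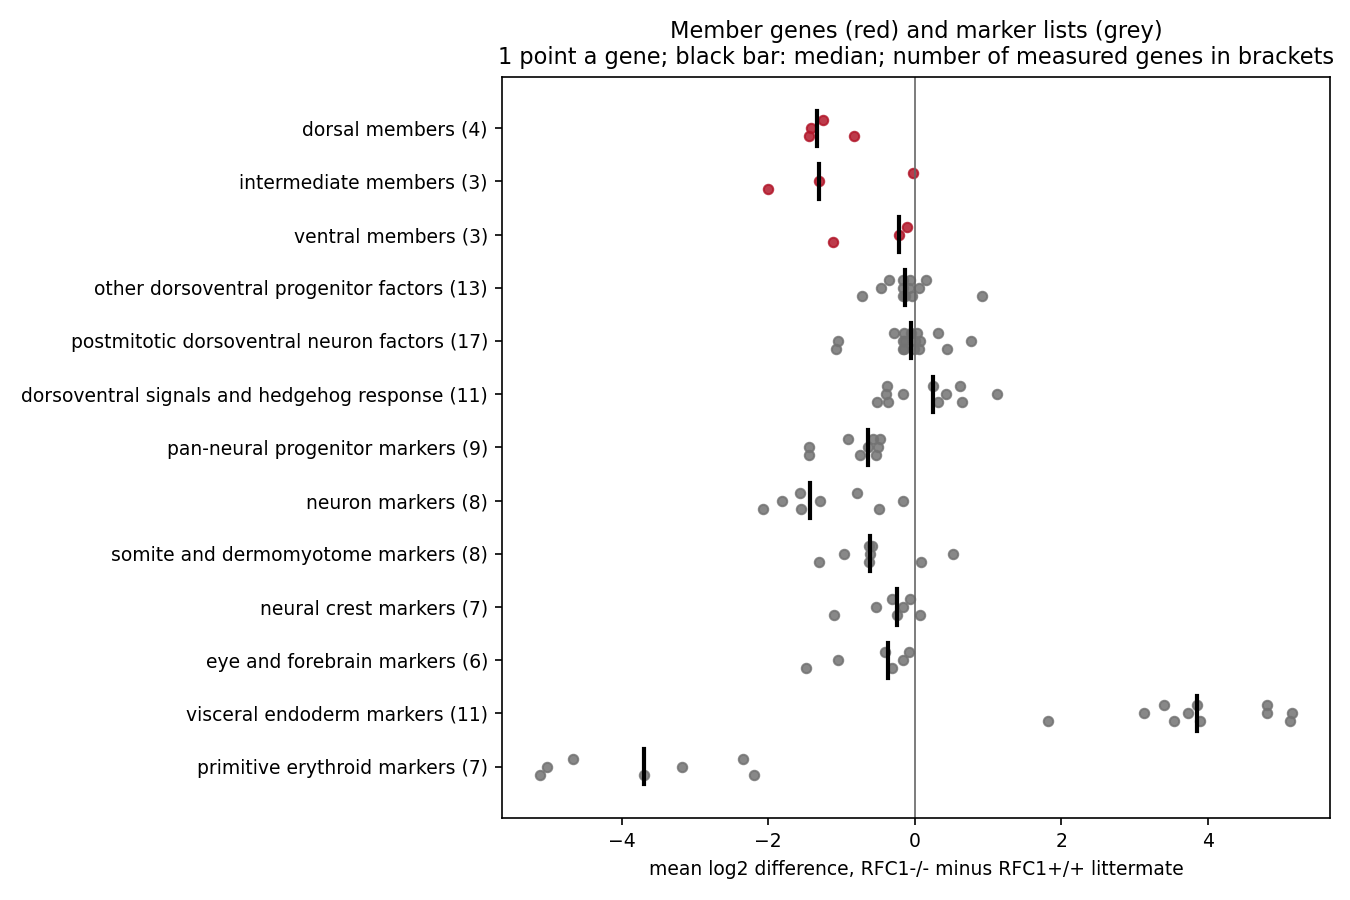
Mean difference in log2 expression between RFC1-/- embryos and RFC1+/+ littermates (x axis) of each member gene by domain (red) and each measured gene of the marker lists (grey), with the number of genes in brackets (y axis). Black bars are medians, which run from -3.70 for primitive erythroid markers to 3.85 for visceral endoderm markers, with dorsal members at -1.33, intermediate members at -1.30, ventral members at -0.21 and pan-neural markers at -0.64.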

How the data were processed

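RNA of 6 single embryos was hybridized to 6 arrays. The authors deposited log2 expression values of 45101 probe sets, made by RMA (background correction, quantile normalization and median polish; no source used here gives the versions). Gene names came from the platform's annotation: 34958 probe sets had 1 symbol, 932 several and 9211 none, and 0 value columns were left unused. The labels and methods name the litter pairs. Deviations from the group means correlated by 0.10, -0.05 and -0.15 within pairs. Between embryos of different litters they correlated by -0.12 to 0.16, so the pairing does not stand out in these values. The difference was fitted on the log2 values of all probe sets with limma 3.58.1 in R 4.3.3, with the litter as a block. Tables and plots were made in Python 3.11.15. The fit was also run on data simulated from its own variance model, which does not test whether that model suits these arrays. Arrays have no depth, and their number limits the precision.

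Named genes were the members, Slc19a1, Shh, the 5 genes nearest to Dbx1 and, from each of 10 lists, up to 3 genes past the threshold with the largest change and any past it against the direction of most; other list genes named (among them Atoh1, Irx3, Msx1, Ptch1, Gli3, Sox2, Pax9 and Rax) were chosen after their values were seen, as were the distances from the pan-neural median and the covariate for sex. The members and lists were chosen with earlier results of these data known, and Msx3, Olig3 and Dbx1 stand in a gene list that the study drew from these embryos. Of 107 listed genes 96 were measured, and the rest were not analysed here. The alternatives were no block, the 1.5-fold variation filter of the methods (2982 probe sets left), dim probe sets left out, 1 probe set a gene, probe sets of a gene averaged, an intensity trend, the random-variance test of the methods, quantile normalization applied again, centring of each array on its median, and each litter left out.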

Additional observations from a re-analysis of the deposited data

How the results depend on the processing

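The count of member genes called lower was 7 and became 1 to 7 with a litter left out, the 1 without litter 1. The count of member probe sets called lower was 9 and became 1 to 10. Over the 10 lists together, 22 genes were called lower and 14 higher, against 12 to 25 and 8 to 19 with a litter left out. Under the other alternatives these counts stayed within 1.5 times, with 6 to 10 member probe sets called lower and none higher. The count was 6 after the variation filter. That filter ended the calls of Pax7 and of a dimmer probe set each of Pax3 and Pax6. In that limma fit every member probe set had the same standard error, 0.389, so a gene's own spread between litters did not enter. That also holds for the Foxa2, Mnx1 and Sox1 values given after this filter. The random-variance test on the same 2982 probe sets called 9 member probe sets lower. Without the replicate block 8 member probe sets were called lower, and Pax7 alone lost its call. The signs of Dbx2 and Nkx2-2, neither of which passed the test, turned without litter 2: with a litter left out Dbx2 ran from -0.068 to 0.024 and Nkx2-2 from -0.19 to 0.037. The cause of these shifts was not tested. Each litter left out leaves 1 residual degree of freedom among samples, and dim probe sets such as those of Dbx2 and Nkx2-2 limit what a difference of these genes could show.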
